A study of Mus musculus with 6 samples.

Results

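DNA break repair and checkpoint genes were followed in CD43- splenic B-cells as a list of 41 named genes of the mouse. All 41 were found by symbol among the 46963 gene names of the count table, and all 41 were among the 14600 genes with enough counts to test. By the known function of their products they were set into 7 roles: 13 genes of homologous recombination, 4 of end resection, 6 of the checkpoint, 7 of classical end joining, 4 of alternative end joining, 3 of the Fanconi pathway and 4 of chromatin signalling at breaks. The members were named by function, with earlier results of these libraries known.

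RNA was sequenced from B-cells of wt mice, of Eμ-deficient mice (EμMAR-deficient in the study's methods), which lack the enhancer Eμ at the 5′ side of the immunoglobulin heavy chain (IgH) constant genes, and of 3′RR-deficient mice, which lack the 3′ regulatory region downstream of them. All 3 genotypes were on a 129 background and are mouse lines, so that the deletion is not limited to B-cells. For each genotype, 1 library of resting cells and 1 of cells cultured for 2 days with 5 μg per ml of lipopolysaccharide (LPS), a bacterial cell wall component that makes B-cells divide and switch isotype, was analysed here, 6 libraries in all. Per the labels each library pools 2 mice. The study's methods describe more than one pool for each genotype, and which of these a library holds is not given in the sources used here. By the labels the resting cells, too, spent 2 days in culture, but the study's methods have them taken before stimulation; in the latter case LPS and time in culture cannot be told apart.

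A double-strand break is repaired by end joining, which seals the ends directly, or by homologous recombination, which copies an intact sister chromatid and so is used after DNA replication. In B-cells, class switch recombination makes breaks on purpose in the IgH locus and joins them mainly by classical end joining, whereas a dividing B-cell also has to repair breaks at replication forks. The kinases ATM and ATR sense the damage and halt the cell cycle through the checkpoint kinases and p53, and the histone H2AX with its readers marks the chromatin around the break.

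Promoter sequence is shown for members of the 3 behaviours described here: recombination genes that were higher after LPS, classical end joining genes that were higher, and the end joining gene that was lower. The sequences are RefSeq promoters of GRCm38.p6, printed 5′ to 3′ on the strand of the gene. Capitals mark a 7-letter core of the binding motif of E2F, the factor family that drives genes of DNA synthesis: TTCGCGC, its variant TTGGCGC, its variant TTCCCGC and its variant TTGCCGC, each on either strand. Bases in any annotated exon were left out, and for Xrcc6 and Lig4, whose promoter windows lie in exons of other transcripts, only 29 bases around the core are shown. Brca2 (chr5:150522371-150522620, plus strand), Bard1 (chr1:71103147-71103222, minus strand) and Blm (chr7:80535120-80535248, minus strand) hold a core, and Rad54l (chr4:116123691-116123839, minus strand) does not.
Brca2: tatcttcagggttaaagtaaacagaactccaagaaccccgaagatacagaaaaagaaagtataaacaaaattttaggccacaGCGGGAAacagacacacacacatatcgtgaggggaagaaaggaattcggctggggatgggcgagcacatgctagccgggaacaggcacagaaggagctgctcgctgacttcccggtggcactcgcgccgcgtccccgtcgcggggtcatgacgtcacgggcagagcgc
Bard1: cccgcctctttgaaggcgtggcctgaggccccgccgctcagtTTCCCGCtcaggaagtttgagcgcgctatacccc
Blm: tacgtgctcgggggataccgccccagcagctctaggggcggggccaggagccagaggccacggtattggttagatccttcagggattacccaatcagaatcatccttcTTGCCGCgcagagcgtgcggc
Rad54l: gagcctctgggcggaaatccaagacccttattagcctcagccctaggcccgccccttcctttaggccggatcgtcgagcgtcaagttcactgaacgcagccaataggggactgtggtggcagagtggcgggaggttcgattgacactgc
Xrcc6 (chr15:82016312-82016340, plus strand) and Lig4 (chr8:9977744-9977772, minus strand) hold a core as well, and Dclre1c (chr2:3423881-3424130, plus strand) does not.
Xrcc6: agggggtggaaGCGGGAAatgcgagtggg
Lig4: tcctcccgggaGCGCGAAgccaacctgtg
Dclre1c: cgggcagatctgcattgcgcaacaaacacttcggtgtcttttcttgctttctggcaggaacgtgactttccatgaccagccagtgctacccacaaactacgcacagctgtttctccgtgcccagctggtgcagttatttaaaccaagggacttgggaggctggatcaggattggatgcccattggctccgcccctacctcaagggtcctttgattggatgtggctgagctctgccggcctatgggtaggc
Over windows from 250 bases before to 50 bases after the start, a RefSeq promoter was found for 33 of the 41 members, and 18 of these 33 (54.5%) held at least 1 core. The core was held by 14 of 21 members that were higher after LPS and by 4 of the 12 others. Among 9722 tested genes with a promoter the share was 19.5%, among 1887 other genes that were higher after LPS it was 26.0%, and over all 32817 promoters it was 9.57%. The CCAAT box (CCAAT, either strand) was in 19 of 33 members (57.6%) and in 43.2% of the tested genes, and the cell cycle element TTTGAA was in 4 of 33 (12.1%) and in 14.8%. These are matches of letters in a window, described without a test, and the letters searched were settled after other forms had been looked at.

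The libraries received between 9111974 and 21998587 counts on genes, and the members between 10142 and 39893 counts. The unit of level is CPM, a count divided by the TMM-scaled size of its library. Of the B-cell markers, Pax5 lay between 353 and 580 CPM in all 6 libraries. Of 8 such markers 3 (Cd22, Cr2 and Fcer2a) were called lower after LPS (21.1% of all genes tested). The 8 summed to between 2764 and 3664 CPM in resting and to between 1811 and 2149 CPM in LPS libraries, with a median log2 fold change of -0.68. Of 5 plasma cell markers Prdm1 and Xbp1 were called higher (19.7% of all genes tested). Their summed level stood apart in Eμ-deficient libraries in both states, at 2235 CPM in resting and 1591 CPM in LPS libraries, against 547 and 582 CPM in wt and 592 and 892 CPM in 3′RR-deficient libraries. Jchain alone gave 1737 and 804 CPM of the Eμ-deficient sums. Sdc1, Prdm1 and Xbp1 were also highest in Eμ-deficient libraries in both states. Irf4 was not, at 367 and 366 CPM against 373 and 268 in wt and 365 and 386 in 3′RR-deficient libraries. The summed CPM of 6 erythroid markers was 20163 in the resting Eμ-deficient library, 3359 and 3868 in the resting wt and 3′RR-deficient libraries and at most 671 after LPS. The 7 T-cell markers summed to between 17.5 and 37.0 CPM in resting and to at most 5.63 CPM in LPS libraries, and the 7 myeloid markers to between 163 and 393 and between 25.7 and 39.5 CPM. In these bulk samples, fewer cells of a type and less RNA per cell cannot be told apart. Spike-in RNAs, which should keep their proportions, had log2 ratios of LPS over resting with an SD of 0.784 in wt, 0.135 in Eμ-deficient and 0.633 in 3′RR-deficient libraries. The SD that the counts' own sampling error gives was 0.0646, 0.0693 and 0.0733.

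Most of the repair genes rose from resting to LPS-stimulated B-cells, and homologous recombination and the Fanconi pathway were the roles with the highest median change. With edgeR's quasi-likelihood test, fitted to all 6 libraries with a term for genotype and one for state, 25 of the 41 members were called higher after LPS and 1, Dclre1c, was called lower, while 15 were not called. Of all 14600 genes tested, 19.7% were called higher and 21.1% lower, against 61% and 2.44% of the members. At an unadjusted p under 0.05 there were 28 members (50.3% of all genes), and DESeq2 called 25 (39.2% of all genes), 24 of them higher. The 3 genotypes served as the repeats of the culture effect, and the error of the model is the departure from additivity over 2 residual degrees of freedom, not the spread between mice. The median log2 fold change was 0.88 over the members and -0.07 over all genes tested. For 27 members every LPS library lay above every resting library, against 25% of all genes tested, and for 2 members, Dclre1c and Rad51d, every LPS library lay below, against 27.3% of all genes.

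**Figure D1:**
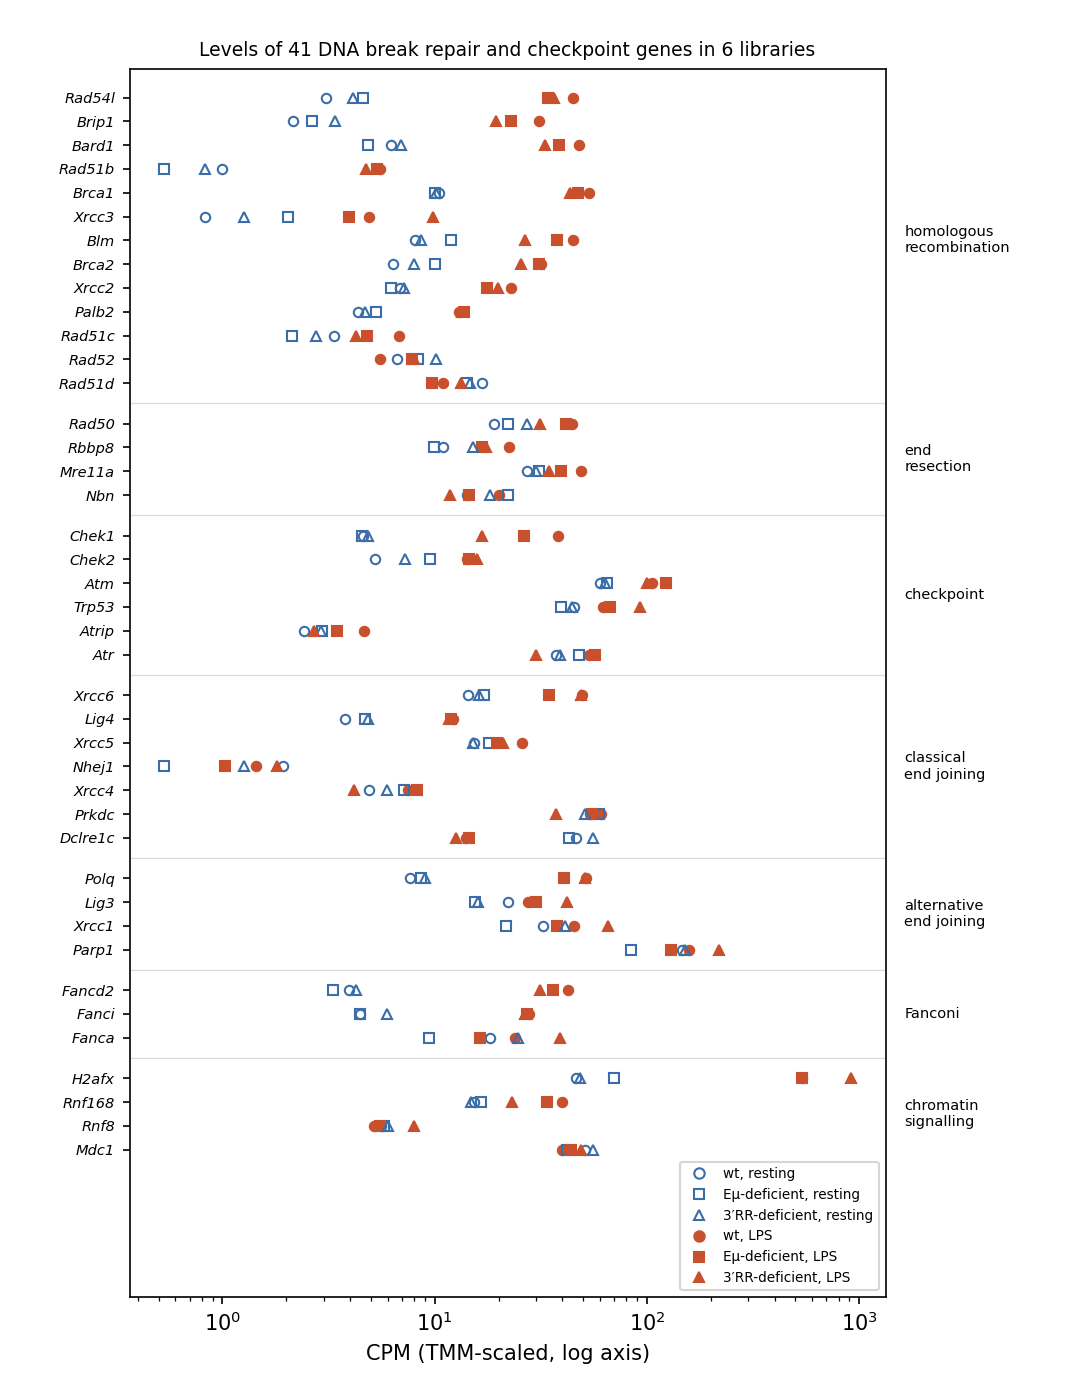
Level of each of the 41 members (rows, grouped by role) in CPM on a log axis in the 6 libraries; open blue symbols are resting and filled red symbols LPS libraries, with a shape per genotype. Most recombination and Fanconi genes separate into a low resting and a high LPS group, whereas Prkdc, Mdc1, Rnf8 and Atrip overlap and Dclre1c is lower after LPS.

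Homologous recombination was the role with the most calls, 11 of 13 members higher (19.7% of all genes tested). Its median log2 fold change was 1.92, with values from -0.43 to 3.29. Brca1, the E3 ligase subunit that brings breaks into recombination (chr11:101488764-101551955), was at 10.5, 10 and 10.2 CPM in resting wt, Eμ-deficient and 3′RR-deficient cells. After LPS it was at 53.4, 47.5 and 43.6 CPM, a log2 fold change of 2.23 (SE 0.23, adjusted p = 0.000183). The groups were far apart and the genotypes close to each other in both states. Bard1, the partner of Brca1 in that ligase, was at 6.22, 4.85 and 6.96 CPM in resting and at 47.9, 38.4 and 33.0 CPM in LPS libraries (2.72, SE 0.26, adjusted p = 0.000154). Brip1, a helicase that binds Brca1, rose from 2.15, 2.65 and 3.41 to 31.1, 23.0 and 19.5 CPM (3.15, SE 0.33, adjusted p = 0.000194). Brca1 and both of its partners thus were several fold higher in each genotype after LPS.

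Brca2, a mediator of strand exchange, was at 6.33, 10 and 8.03 CPM in resting wt, Eμ-deficient and 3′RR-deficient libraries and at 31.9, 31.0 and 25.6 CPM after LPS (1.88, SE 0.26, adjusted p = 0.00068). Palb2, which ties Brca2 to Brca1, rose from 4.35, 5.30 and 4.72 to 13, 13.8 and 13.5 CPM (1.49, SE 0.26, adjusted p = 0.00235). The lowest LPS value of both genes was more than 2-fold above the highest resting value. Rad54l, a motor protein that remodels the joint molecule (chr4:116094264-116123690), had the largest change of the role: 3.08, 4.62 and 4.14 CPM in resting and 45.1, 34.1 and 36.4 CPM in LPS libraries (3.29, SE 0.29, adjusted p = 9.9e-05). Blm, the helicase that dissolves crossed strands, rose from 8.10, 11.9 and 8.61 to 44.7, 37.8 and 26.5 CPM (1.92, SE 0.26, adjusted p = 0.000686).

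Rad51b, Rad51c, Rad51d, Xrcc2 and Xrcc3, related proteins that assist strand exchange, did not move alike. Rad51b rose from 0.99, 0.53 and 0.83 to 5.50, 5.35 and 4.72 CPM (log2 fold change 2.72, SE 0.39, adjusted p = 0.000805), on only 18, 7 and 17 counts in resting cells. Xrcc3 was at 0.83, 2.05 and 1.27 CPM in resting and at 4.93, 3.94 and 9.79 CPM in LPS libraries (2.17, SE 0.45, adjusted p = 0.0052). Its change ran from a log2 ratio of 0.95 in Eμ-deficient to 2.95 in 3′RR-deficient cells, the widest range of any member. Xrcc2 rose from 6.89, 6.21 and 7.15 to 22.9, 17.6 and 19.8 CPM (1.57, SE 0.25, adjusted p = 0.00132). Rad51c rose less, from 3.36, 2.12 and 2.77 to 6.80, 4.78 and 4.27 CPM (0.93, SE 0.32, adjusted p = 0.0427), and its call was lost without any one of the genotypes, with adjusted p of 0.0658, 0.20 and 0.0724 without wt, Eμ-deficient and 3′RR-deficient libraries. Rad51d was not called and had lower values after LPS, 10.9, 9.75 and 13.3 CPM against 16.7, 14.2 and 14.6 CPM (-0.43, SE 0.25, adjusted p = 0.192). Rad52, which anneals single strands, overlapped between the states, with 6.66, 8.33 and 10.2 CPM in resting and 5.50, 7.78 and 7.99 CPM in LPS libraries (-0.24, adjusted p = 0.49). In the strand-specific counts Rad54l, Xrcc3, Palb2 and Brca2 share exon bases with a gene on the opposite strand, and without such genes 7 of 9 recombination members were called higher.

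End resection trims the ends to single strands and so commits them to recombination. Of its 4 members only Rad50, the zipper-like subunit of the MRN complex, was called, from 18.9, 22.2 and 27.2 to 44.4, 41.5 and 31.5 CPM (log2 fold change 0.78, SE 0.26, adjusted p = 0.0381), and not without the Eμ-deficient libraries (adjusted p = 0.15). This 1 of 4 is near the 19.7% of all genes tested that were called higher. Mre11a, the nuclease of that complex, was at 27.4, 31.1 and 30.1 CPM in resting and at 49.0, 39.2 and 34.8 CPM in LPS libraries (0.46, adjusted p = 0.14). Rbbp8, which encodes CtIP, the activator of the nuclease, was at 10.9, 9.92 and 15.1 and at 22.4, 16.8 and 17.4 CPM (0.67, adjusted p = 0.0658). Both genes had every LPS library above every resting one without passing the threshold. Nbn, the third subunit of the MRN complex, had values of 14.2, 22.1 and 18.2 CPM in resting and 20, 14.4 and 11.8 CPM in LPS libraries, higher after LPS in wt and lower in both mutants (-0.24, adjusted p = 0.532). Without the wt libraries Nbn was called lower, with an adjusted p of 0.0429.

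In the checkpoint 4 of 6 members were called higher (19.7% of all genes tested), with a median log2 fold change of 0.78. Chek1, the kinase that ATR activates when replication stalls, rose from 4.57, 4.55 and 4.87 CPM in resting wt, Eμ-deficient and 3′RR-deficient libraries to 38.1, 26.4 and 16.6 CPM (2.46, SE 0.31, adjusted p = 0.000445). The resting values lay close together, whereas the LPS values differed more than 2-fold between genotypes. Chek2, the kinase downstream of ATM, was at 5.23, 9.47 and 7.25 and at 14.3, 14.5 and 15.9 CPM (1.06, SE 0.27, adjusted p = 0.0137). Atm itself was at 60.4, 64.7 and 63.3 and at 106, 124 and 99.7 CPM (0.80, SE 0.22, adjusted p = 0.0192). Trp53, which encodes p53, was at 45.6, 39.5 and 44.4 and at 62.5, 67.0 and 92.5 CPM (0.76, SE 0.23, adjusted p = 0.0271). These 3 calls were lost in the fit without the 3′RR-deficient libraries, with an adjusted p of 0.0538 for Chek2, and those of Atm and Trp53 also in the fit without the Eμ-deficient libraries. Atr, the kinase that senses single-stranded DNA, overlapped between the states at 37.2, 47.7 and 39.1 against 53.3, 57.2 and 30.1 CPM (0.14, adjusted p = 0.675), and so did Atrip, its partner, at 2.42, 2.95 and 2.92 against 4.64, 3.47 and 2.70 CPM (0.37, adjusted p = 0.434). Atrip shares 1147 exon bases with Trex1 on the same strand, which has 0 counts in all 6 libraries. Reads in bases shared on the same strand may have been left uncounted for both genes. The 0 counts thus do not show that Trex1 is silent, and Atrip may lack such reads.

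Classical end joining had the lowest median change of the 7 roles. Of its 7 members 2 were called higher and 1 lower (19.7% and 21.1% of all genes tested), and the median log2 fold change was 0.26. Without members that overlap a gene on the opposite strand its median was 0.35. Those of chromatin signalling (0.08) and end resection (0.27) were then lower. Xrcc6, which encodes the Ku70 subunit of the ring that binds broken ends (chr15:81987835-82040085), rose from 14.4, 17.0 and 16.1 to 49.4, 34.5 and 49.2 CPM (1.47, SE 0.25, adjusted p = 0.0018). Xrcc5, which encodes the other subunit, Ku80, had values of 15.3, 18.0 and 15.2 CPM in resting and 25.9, 19.6 and 20.9 CPM in LPS libraries and was not called (0.45, SE 0.24, adjusted p = 0.164). Of the subunits of this dimer one thus was called and the other was not, and their difference was not tested. Xrcc6 shares 344 exon bases with Desi1 on the opposite strand. Lig4, the ligase of the pathway (chr8:9969049-9977686), rose from 3.8, 4.70 and 4.87 to 12.3, 11.9 and 11.7 CPM (1.43, SE 0.27, adjusted p = 0.00347).

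The other classical members were not called higher. Prkdc, the kinase DNA-PKcs that Ku recruits, was at 54.1, 59.2 and 51.1 CPM in resting and at 60.7, 55.2 and 37.2 CPM in LPS libraries (log2 fold change -0.13, SE 0.23, adjusted p = 0.677). Xrcc4, the scaffold of Lig4, was at 4.90, 7.2 and 5.94 and at 7.51, 8.25 and 4.16 CPM (0.12, SE 0.32, adjusted p = 0.788), and the scaffold and its ligase thus were on different sides of the threshold. Nhej1, which encodes XLF, had between 7 and 35 counts per library, and its 1.93, 0.53 and 1.27 CPM in resting and 1.44, 1.03 and 1.80 CPM in LPS libraries overlapped (0.26, SE 0.47, adjusted p = 0.687). Dclre1c, which encodes Artemis, the nuclease that opens hairpin ends (chr2:3424131-3464130), fell from 46.4, 43.0 and 55.9 CPM in resting to 14.1, 14.5 and 12.6 CPM in LPS libraries (-1.81, SE 0.24, adjusted p = 0.000553). It was the only called member that was lower, it was lower in each genotype, and the call held under all 12 alternatives tried. Dclre1c shares 357 exon bases with Suv39h2 on the opposite strand, which had between 23 and 204 counts.

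Alternative end joining, which uses short stretches of matching bases, had 3 of 4 members called higher (19.7% of all genes tested). Its median log2 fold change was 0.77. Polq, the polymerase that extends such joints, rose from 7.66, 8.64 and 9 to 51.8, 40.7 and 51.1 CPM (2.50, SE 0.24, adjusted p = 0.000149), a 5.66-fold change. Lig3, a ligase of this pathway, rose from 22.3, 15.5 and 16.1 to 27.6, 30.0 and 42.2 CPM (0.88, SE 0.27, adjusted p = 0.0263). Xrcc1, its scaffold, was at 32.4, 21.7 and 40.9 and at 45.4, 37.9 and 65.6 CPM (0.65, SE 0.22, adjusted p = 0.0386). Values of the states overlapped for Xrcc1, with the genotypes in the same order in both states and a higher value after LPS in each. Parp1, which marks breaks with ADP-ribose, was at 146, 84.5 and 152 and at 158, 129 and 219 CPM (0.42, SE 0.24, adjusted p = 0.193). The calls of Lig3 and Xrcc1 were lost without the Eμ-deficient or the 3′RR-deficient libraries.

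The Fanconi pathway unhooks crosslinked strands and stabilises stalled forks. Fancd2 and Fanci, which form the pair that is ubiquitinated at the crosslink, moved together. Fancd2 rose from 3.97, 3.33 and 4.28 to 42.5, 36.2 and 31.4 CPM (3.24, SE 0.26, adjusted p = 8.2e-05), and Fanci from 4.46, 4.47 and 5.94 to 27.8, 27.3 and 26.5 CPM (2.46, SE 0.26, adjusted p = 0.000194). Fanca, a subunit of the ligase complex upstream of them, was at 18.2, 9.39 and 24.8 and at 24.0, 16.4 and 38.9 CPM and did not pass the threshold (0.61, SE 0.23, adjusted p = 0.0569). On the opposite strand Fancd2 shares 257 exon bases with Fancd2os, Fanci 921 with Polg and Fanca 920 with Zfp276. With 0 members free of such overlap, the median of this role could not be taken without it.

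Among the chromatin members H2afx, which encodes the histone H2AX (chr9:44334694-44336077), had the largest change of all members, from 46.4, 69.8 and 48.6 to 538, 540 and 918 CPM (3.58, SE 0.34, adjusted p = 0.000137). The summed CPM of the 41 members was between 768 and 864 in resting and between 1764 and 2222 in LPS libraries, and without H2afx between 699 and 815 and between 1225 and 1372. Rnf168, the ubiquitin ligase that spreads the mark, rose from 15.3, 16.6 and 14.8 to 39.6, 33.8 and 23.2 CPM (1.02, SE 0.24, adjusted p = 0.00972). Rnf8, which acts before it, was at 5.56, 5.76 and 6.03 and at 5.17, 5.53 and 7.99 CPM (0.08, adjusted p = 0.841), and it shares exon sequence with Gm28043 on the same strand. Mdc1, the reader that binds the marked histone, was at 51.1, 42.0 and 55.6 and at 39.7, 43.7 and 49.0 CPM (-0.16, adjusted p = 0.573). H2AX and its downstream ligase were thus called, and the reader and the first ligase between them were not.

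**Figure D2:**
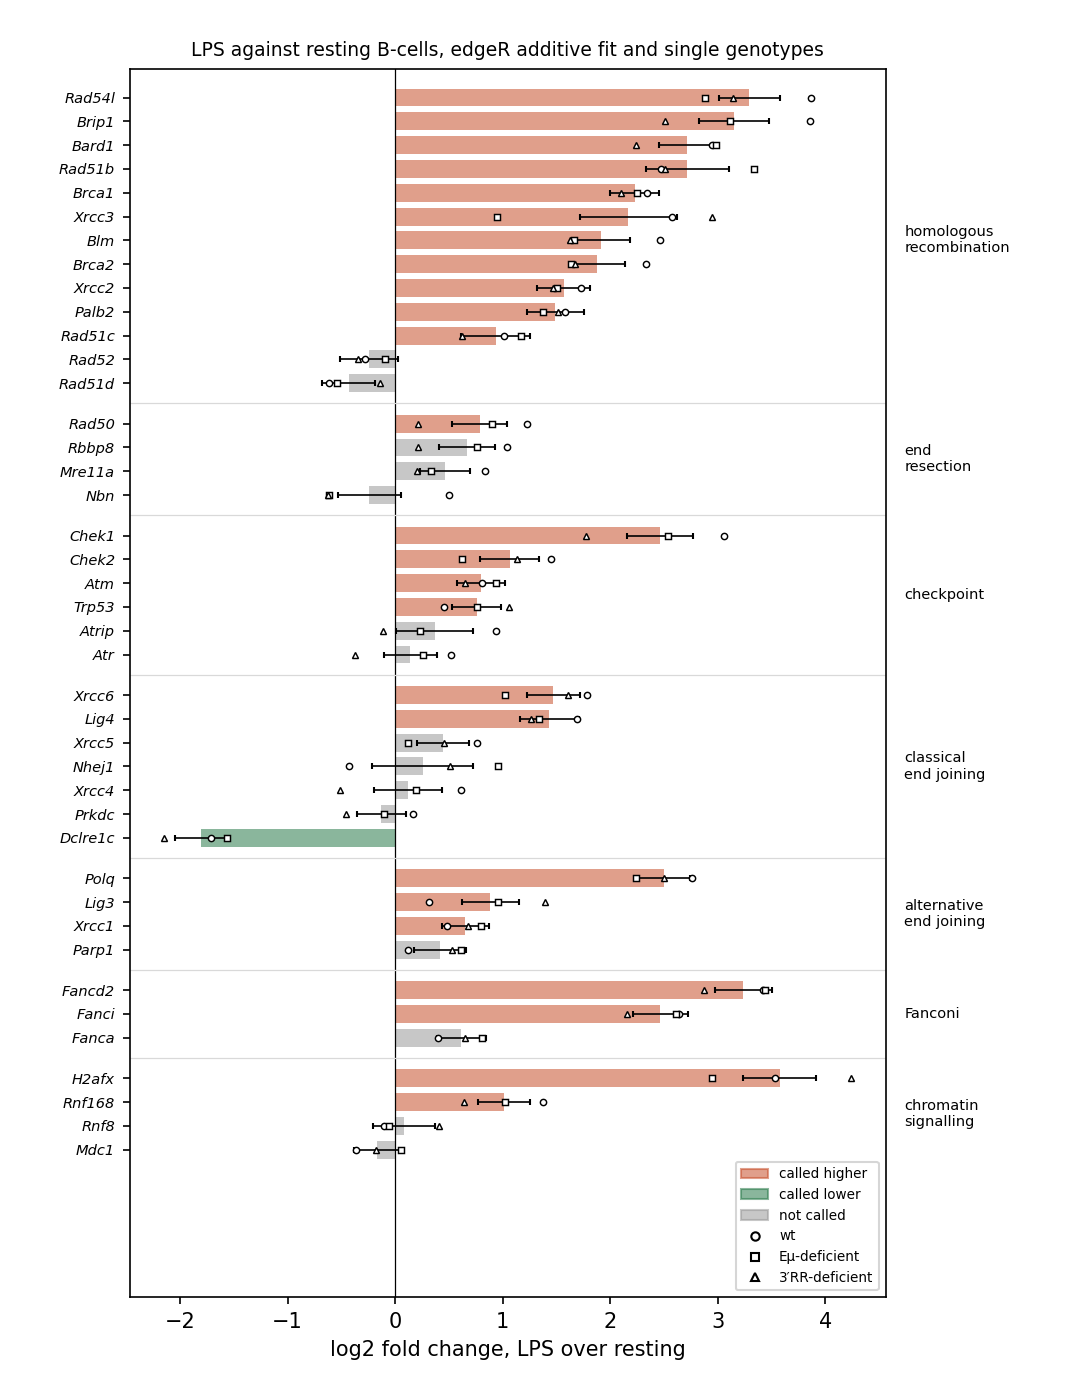
Bars give the log2 fold change of LPS over resting libraries from the additive edgeR model with its SE (black line), coloured by call, and open symbols give the ratio within each genotype. Of 13 recombination genes 11 are called higher, whereas 4 of 7 classical end joining genes are not called and Dclre1c is called lower. Of all genes tested 19.7% were called higher and 21.1% lower.

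End joining was compared with recombination as the mean log2 CPM per kb of exon over the members of each role. In resting cells the 7 classical end joining genes stood above the 13 recombination genes by 1.73 in wt, 1.57 in Eμ-deficient and 1.62 in 3′RR-deficient libraries, that is 3.33-, 2.96- and 3.08-fold. After LPS this difference of levels was 0.16, 0.16 and 0.07, that is 1.12-, 1.12- and 1.05-fold. Resting B-cells thus held several times more end joining than recombination transcript per gene and length, and LPS-stimulated cells held nearly equal levels by this mean. By the median CPM per kb, recombination was above classical end joining after LPS, at 3.05 against 2.30. Without division by length, recombination was above by 0.26 to 0.35 in log2 CPM in the LPS libraries. With the alternative end joining members added to that score, end joining was above by 0.43 to 0.58. The difference of the means per kb changed by -1.57 in wt, -1.41 in Eμ-deficient and -1.55 in 3′RR-deficient cells, a mean of -1.51 ± 0.088 (SD, n = 3 genotypes). Recombination genes rose by 1.76 ± 0.19 and end joining genes moved by 0.25 ± 0.16 on the log2 scale (SD, n = 3). The small end joining change is a mean of opposed genes. In the fit Dclre1c was at -1.81, Xrcc6 at 1.47 and Lig4 at 1.43, and the other classical members lay between -0.13 and 0.45. The mean without Dclre1c was not taken. With the 4 alternative end joining members added to the classical ones the change of the difference was -1.2. With the median over members in place of the mean it was -1.85, and end joining then moved by -0.18 ± 0.13 (SD, n = 3), so that the direction of the end joining change depends on this choice. Genotypes have 1 library per state, so that their differences in this value carry no test. No p is given for these means, since the genes of a role were chosen with earlier results of these libraries known.

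**Figure D3:**
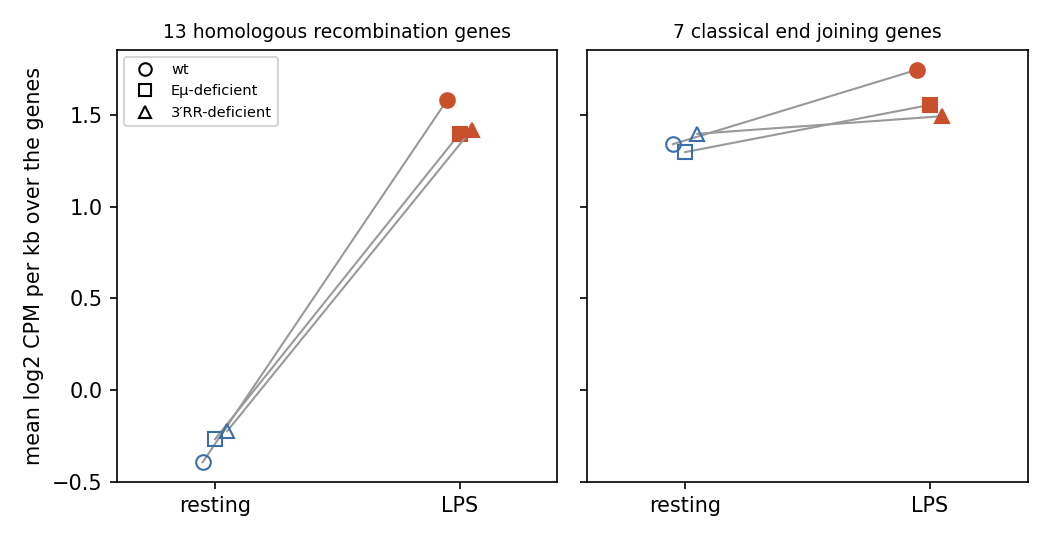
Mean log2 CPM per kb over the 13 recombination members (left) and the 7 classical end joining members (right) in resting and LPS libraries, with a symbol and a line per genotype. The recombination mean rises from between -0.39 and -0.22 to between 1.4 and 1.58, whereas the end joining mean moves from between 1.30 and 1.4 to between 1.49 and 1.75.

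Ordered by level per kb, H2afx (39.7 CPM per kb as the mean of the resting and 481 of the LPS libraries), Parp1 (24.1 and 31.9) and Trp53 (10.7 and 18.3) were the highest members in both states, and their ranges over libraries did not overlap each other. Below them the neighbours in resting cells, Nbn, Mdc1, Xrcc5, Atm and Xrcc1 between 7.17 and 5.43 CPM per kb, had overlapping ranges. The lowest resting members were Rad51b (0.21), Brip1 (0.37) and Atrip (0.39), and the lowest LPS members were Atrip (0.50) and Rnf8 (0.53). Length here is that of all annotated exons of a gene merged, 7152 bases for Atrip and 11703 for Rnf8. Of these, 1147 and 1542 are shared with a gene on the same strand. The part of length and shared bases in this order was not tested. Brip1 left the low end with LPS at 3.29 CPM per kb, and Dclre1c moved from 5.2 to 1.48.

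Within each genotype the log2 ratio of LPS over resting was taken with its counting interval. The interval lay above 0 for 35 of 41 members in wt, 30 in Eμ-deficient and 28 in 3′RR-deficient cells, against 36.9%, 34.3% and 32.7% of all genes tested. It lay below 0 for 3, 3 and 5 members, against 40.4%, 32.9% and 35.3% of all genes. Of the 25 members called higher, which were chosen from these same ratios, 16 were 2-fold or more in every genotype. The median log2 ratio over the 41 members was 1.04 in wt, 0.95 in Eμ-deficient and 0.68 in 3′RR-deficient cells. Set beside the spike-in RNAs, whose highest log2 ratio was 2.50 in wt, 0.126 in Eμ-deficient and 1.16 in 3′RR-deficient cells, 9, 25 and 18 of the 25 called members lay above the highest spike-in. The 9 that did so in every genotype were Bard1, Brip1, Xrcc3, Rad54l, Chek1, Polq, Fancd2, Fanci and H2afx, and for Xrcc3 this holds with resting counts between 15 and 27. Proliferation genes moved with this result: 14 of 14 listed genes, such as Mki67, Ccna2 and Mcm5, were called higher, and their summed level was between 377 and 513 CPM in resting and between 2566 and 3265 CPM in LPS libraries. Their part in the rise of the repair genes was not tested.

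Other repair genes, listed by function outside the 41, were counted in the same way. Of 71 listed genes 68 were found, 67 were tested, and 31 of these were called higher and 4 lower. Over all genes tested 19.7% were called higher and 21.1% lower. Of the recombination genes on these lists 12 of 22 were higher and 0 lower, with a median log2 fold change of 1.2. Of the end joining genes 2 of 9 were higher and 2 lower, near the shares of all genes, with a median of -0.22. Of the checkpoint genes 6 of 13 were higher and 2 lower, of the Fanconi genes 4 of 10 were higher and of the chromatin genes 7 of 13. Among the largest rises were those of Cdc25c (log2 fold change 4.09), a phosphatase that starts mitosis, of Rad51ap1 (3.61), a cofactor of recombination, and of the nucleases Exo1 (3.36) and Eme1 (3.29). The 4 that fell were Dntt (-3.46), which adds bases at V(D)J joints and had 17 counts or fewer, the stress gene Gadd45a (-1.37), Parp3 (-1.36) and the kinase Plk3 (-1.15).

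Deletion of an enhancer was compared with wt in the same model, over both states. None of the 41 members was called in Eμ-deficient against wt (0.911% of all genes tested were called higher and 0.253% lower), in 3′RR-deficient against wt (0.171% and 0.507%) or in Eμ-deficient against 3′RR-deficient libraries (1.06% and 0.24%). At an unadjusted p under 0.05 the edgeR counts were 1, 0 and 3 members, against 8.68%, 5.69% and 12.5% of all genes. DESeq2 called 0, 0 and 1 member, against 2.33%, 1.27% and 2.51% of all genes. Even some fitted differences past 2-fold were not called, such as Nhej1 at -1.15 in Eμ-deficient against wt libraries (adjusted p = 0.721), and an absence of calls does not show equal levels.

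The member that came closest was Fanca. It was at 9.39 and 16.4 CPM in Eμ-deficient resting and LPS libraries, against 24.8 and 38.9 CPM in 3′RR-deficient and 18.2 and 24.0 CPM in wt libraries, so that Eμ-deficient cells were lowest in both states. Against 3′RR-deficient cells its log2 fold change was -1.32 (SE 0.28, adjusted p = 0.0654), and DESeq2 gave an adjusted p of 0.013. Xrcc1 (-0.85, SE 0.27, adjusted p = 0.231) and Parp1 (-0.80, SE 0.30, adjusted p = 0.318), which act together at strand breaks, were also lower in Eμ-deficient than in 3′RR-deficient cells in both states. A fit to these 4 libraries alone called all 3 genes lower. The same fit called many more of all genes than the main model did, with the counts given at the end. Within a state, the members 2-fold or more lower in Eμ-deficient than in 3′RR-deficient libraries were Fanca and Nhej1 in resting cells (4.89% of all genes) and Fanca and Xrcc3 after LPS (6.71%), and 0 were 2-fold or more higher (10.7% and 10.9%). After correction for GC content, 0 members were past 2-fold after LPS (Fanca -0.92 and Xrcc3 -0.89) and 3 in resting cells, Fanca (-1.16) and Nhej1 (-1.15) lower and Xrcc3 (1.02) higher. The correction is fitted to all genes and need not free the members of a trend. Their corrected ratios had a Spearman's rho with GC content of -0.38 after LPS and 0.11 in resting cells. The summed plasma cell and erythroid markers, which are highest in Eμ-deficient libraries, move with these differences. Of the plasma cell markers Irf4 does not, and the part of the markers in these differences was not tested. Fanca shares 920 exon bases with Zfp276 on the opposite strand. After correction for GC content Fanca was at -1.04 (adjusted p = 0.062), Parp1 at -0.61 and Xrcc1 at -0.42.

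Within a state the genotypes have 1 library each, so that ratios are given with exact Clopper-Pearson 95% intervals of the counts, which cover counting error only and compare libraries. In resting cells the median log2 ratio of the members to wt was 0.12 in Eμ-deficient and 0.12 in 3′RR-deficient libraries. After LPS it was -0.23 and -0.21. With scaling by the total count the resting medians were -0.08 and -0.07, so that the sign of the resting medians depends on the scaling. In resting libraries the interval lay above 0 for 9 members and below 0 for 7 in Eμ-deficient cells (29.6% and 27.7% of all genes), and for 9 and 1 members in 3′RR-deficient cells (21.5% and 19.1%). In LPS libraries it lay above 0 for 2 and below 0 for 19 members in Eμ-deficient cells (22.6% and 22.3%), and for 10 and 19 members in 3′RR-deficient cells (31.8% and 27.7%). Past 2-fold were 2 members in resting Eμ-deficient cells (12.6% of all genes were 2-fold or more higher and 5.62% lower), 0 in LPS Eμ-deficient cells (9.12% and 3.4%), 0 in resting 3′RR-deficient cells (5.38% and 3.95%) and 1 in LPS 3′RR-deficient cells (15.9% and 10.7%). The first 2 were Xrcc3 at 1.31 (27 against 15 counts, 95% interval 0.35 to 2.32) and Nhej1 at -1.86 (7 against 35 counts, -3.28 to -0.67). This resting pair, too, followed GC content, with a Spearman's rho of -0.38 over all genes. After correction for it the median was -0.03 and 4 members were past 2-fold, with H2afx (1.14) and Rad51b (-1.02) added. The last was Chek1, at 16.6 against 38.1 CPM in wt, a log2 ratio of -1.2 (95% interval -1.46 to -0.94). Once its dependence on GC content was taken out it stood at -0.51.

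**Figure D4:**
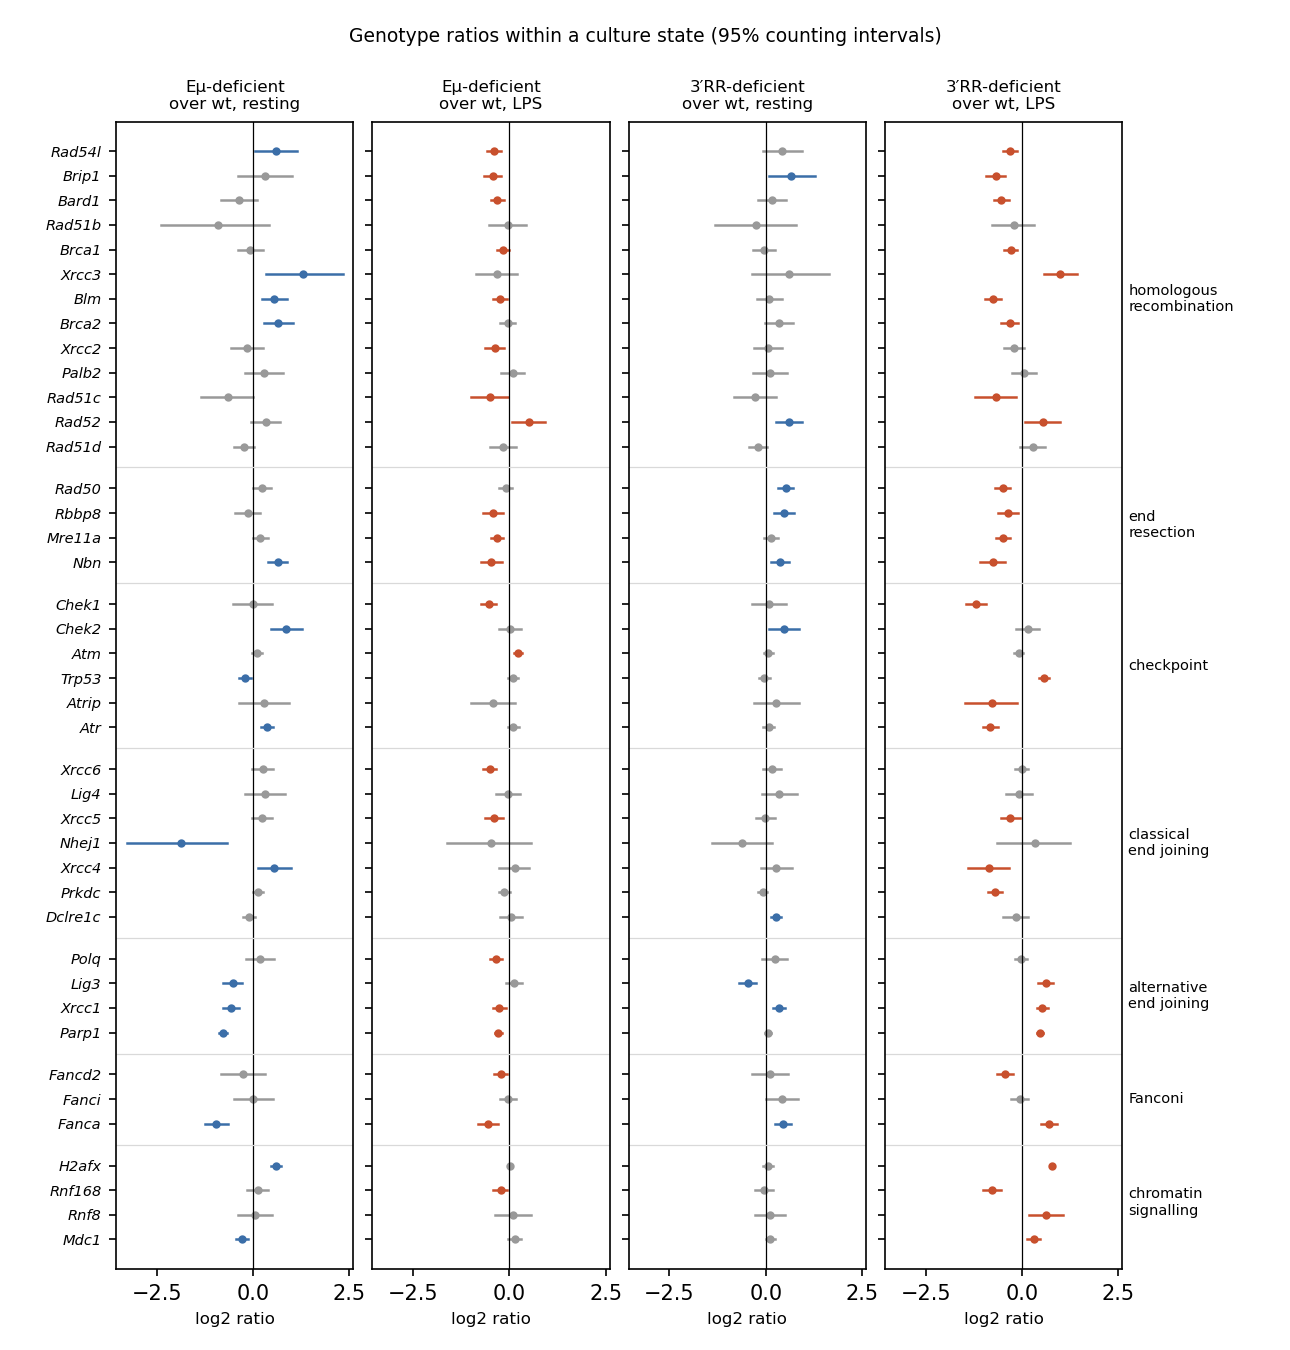
Log2 ratio of each mutant library to the wt library in the same state, with exact 95% counting intervals; coloured points have an interval that leaves out 0 and grey points do not. Most intervals lie within 1 of 0, the exceptions past 2-fold being Xrcc3 and Nhej1 in resting Eμ-deficient cells and Chek1 in LPS-stimulated 3′RR-deficient cells.

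The ratio of the LPS-stimulated 3′RR-deficient to the wt library moved with the GC content of the transcript. Over 14357 genes Spearman's rho was 0.56 and over the 41 members 0.72, across genes of the same pair of libraries, which are not independent. The 10 members of lowest GC content, of which Atr and Chek1 are examples, had a median log2 ratio of -0.52 and the 10 of highest, such as H2afx, Xrcc3 and Fanca, one of 0.50. In resting cells rho over the members was -0.089. With the trend removed, the SD of the members' ratios in LPS-stimulated cells fell from 0.54 to 0.38, the median was -0.03, and H2afx went from 0.77 to 0.01 and Atr from -0.82 to -0.13. Atrip became the only member past 2-fold, at -1.32. In the same pair of libraries the spike-in RNAs spread with an SD of 1.27, from -3.15 to 1.62, and each of the 41 ratios lay inside that range.

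**Figure D5:**
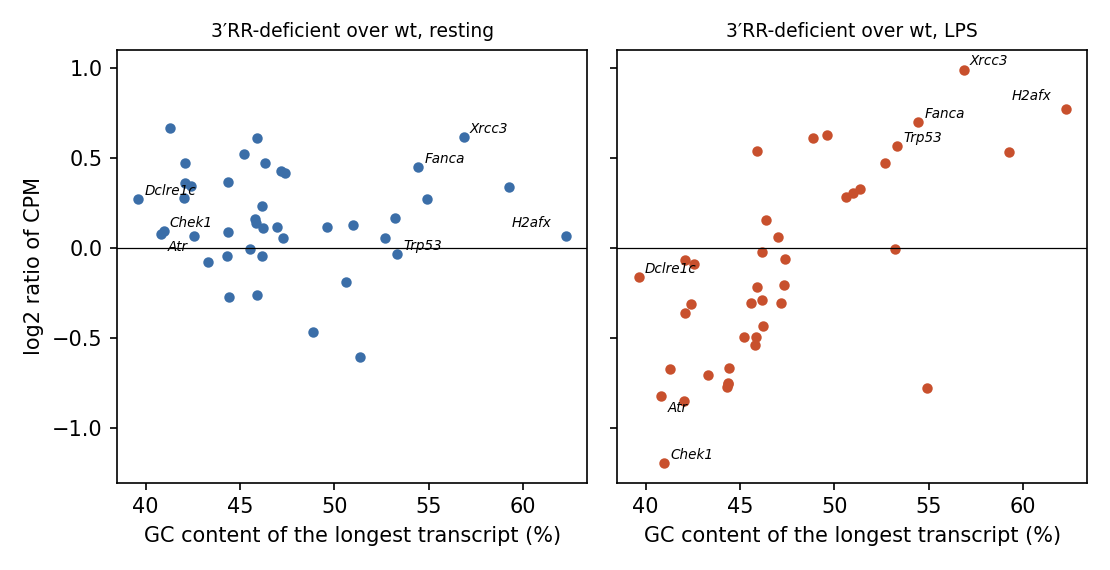
Log2 ratio of 3′RR-deficient to wt CPM of the 41 members against the GC content of their longest transcript, in resting (left) and LPS-stimulated cells (right). In LPS-stimulated cells the members climb from below 0 at low to above 0 at high GC content, rho 0.72, and in resting cells they do not, rho -0.089.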

How the data were processed

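Raw counts, one row per gene name, were deposited by the authors. Per the study's methods and the submitters' processing notes, RNA depleted of ribosomal RNA was made into stranded libraries, and paired reads were mapped to mm10 with STAR 2.4.0a and Ensembl release 77 and counted with featureCounts (Subread 1.4.6-p1), multi-mapping reads included at their primary alignment. The kit and the strand option were checked on the counts: in 71 antisense and coding pairs the antisense gene was higher in 0. From these counts, 92 spike-in RNAs (between 4.75% and 7.10% of counts) were left out, library sizes were scaled by TMM, and genes that reached 10 counts in 2 or more libraries were fitted with edgeR 4.0.16 (R 4.3.3, quasi-likelihood test, genotype plus state, Benjamini-Hochberg, threshold 0.05). Log2 CPM used a prior count of 2. DESeq2 1.42.0 and scipy 1.17.1 served for alternatives and intervals. Annotation was GENCODE M21 of GRCm38, the build of mm10. The members, roles, lists and tests were chosen with earlier results of these data known. All members are named; of the other repair genes, the 5 largest called rises and falls are, except for 1 that is not reported here. The alternatives were other scalings, filters and tests, a correction for GC content, fits to fewer libraries and no genotype term. The model was run on simulated data with the same relative spread for all genes, the same LPS change in each genotype and no trend on GC content. That run cannot speak for libraries that depart from these settings. The labels do not say whether the resting and LPS libraries of a genotype came from the same mice. The LPS dose is 5 μg per ml in the sample labels and methods, although 1 protocol text gives it in mg.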

Additional observations from a re-analysis of the deposited data

Results flagged for a closer look

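The genotypes moved opposite ways for a few members, with counting intervals on different sides of 0; each difference rests on 1 library per genotype and state and was not tested. From resting to LPS, Nbn had a log2 ratio of 0.499 in wt, -0.615 in Eμ-deficient and -0.624 in 3′RR-deficient cells, Atr of 0.52, 0.264 and -0.376, and Prkdc of 0.166 in wt and -0.458 in 3′RR-deficient cells. These ratios were not corrected for GC content. With that correction, the 3′RR-deficient to wt ratio in LPS libraries went from -0.82 to -0.13 for Atr and from -0.71 to -0.25 for Prkdc. For Nbn it went from -0.76 to -0.41.

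Other members changed side between the states when a mutant was set against wt. For Eμ-deficient cells the log2 ratios in resting and LPS libraries were 0.583 and -0.401 for Rad54l, 0.555 and -0.242 for Blm, and 0.644 and -0.47 for Nbn. For 3′RR-deficient cells they were 0.665 and -0.677 for Brip1, 0.468 and -0.365 for Rbbp8, 0.519 and -0.496 for Rad50, 0.363 and -0.76 for Nbn, and -0.471 and 0.611 for Lig3. Nbn stands in both sets. After correction for GC content Rbbp8 stayed above 0 in both states of 3′RR-deficient cells (0.375 and 0.211). Brip1 was then at 0.558 and -0.027, and the other members kept their sides. For Eμ-deficient over wt after LPS, Spearman's rho of the 41 ratios with GC content was -0.092 before and -0.47 after the correction. The corrected values of that pair thus still follow GC content.

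The spike-in RNAs themselves are data outside the comparisons. The SD of their log2 ratios of LPS over resting was 0.784 in wt, 0.135 in Eμ-deficient and 0.633 in 3′RR-deficient libraries, above the counting error of each pair.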

How the results depend on the processing

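Of the 26 members called after LPS, 18 were called in the same direction under all 12 alternatives, 17 higher and Dclre1c lower; over the 41 members and 12 alternatives, 449 of 492 values kept their direction and side of the threshold, 29 lost and 5 gained the call and 9 changed sign. Members called higher numbered 25, with 17 to 27 over the alternatives: 20 with scaling by the total count, 17 with spike-in counts as library sizes, and 19 to 26 when a genotype was left out. Calls lost under some alternative were those of Rad51c, Rad50, Atm, Chek2, Trp53, Lig3, Xrcc1 and Rnf168. Spike-in scaling shifted the median of all genes by -0.21 (log2) and gave 1454 higher and 2900 lower calls, against 2883 and 3079.

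Without a genotype, genes called after LPS ranged from 3960 to 6655 (main 5962; lowest without the Eμ-deficient libraries), those called higher from 2115 to 3426 and those called lower from 1845 to 3229, and members called lower from 1 to 2 (Nbn the second, without wt). Changed signs, all of members that were not called, were those of Atr (-0.074), Xrcc4 (-0.10) and Rnf8 (-0.13) with spike-in scaling and of Rnf8 (-0.015) with the total count. Without a genotype, values ran from -0.60 to 0.040 for Nbn, from -0.029 to 0.38 for Atr, from -0.26 to 0.020 for Prkdc, from -0.12 to 0.40 for Xrcc4 and from -0.10 to 0.24 for Rnf8. The cause was not tested.

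Genes called between genotypes moved more. Eμ-deficient against wt gave 170, with DESeq2 340, without a filter 605 and in a fit to the 4 libraries 393. 3′RR-deficient against wt gave 99, with spike-in scaling 170, DESeq2 178, no filter 339 and 4 libraries 177. Eμ-deficient against 3′RR-deficient gave 190, with DESeq2 366, no filter 777 and 4 libraries 1777, and members called lower went from 0 to 1 with DESeq2, 1 without a filter (Fanca in both) and 3 with 4 libraries. The change of end joining minus recombination was -1.51, -1.35 on log2(CPM + 1), -1.2 with alternative end joining added, -1.85 with medians and -1.56 to -1.48 when a genotype was left out. The labels give no replicate numbers, so that no replicate block was fitted; the genotype term pairs the resting and LPS libraries of a genotype, and without it 23 members were called higher and 1 lower. Without genes that overlap on the opposite strand, 16 of 26 members were called higher. With 1 library per genotype and state, intervals cover counting error only, and depth limits Nhej1, Rad51b, Xrcc3, Rad51c and Atrip.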
